A study of Mus musculus with 9 samples.

Results

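The regions described here are those that an Agilent mouse array design labels lincRNA, for long intergenic non-coding RNA, and reads by tiling 60-base probes along 1 strand. They were chosen by that label alone, which covers 16251 of the 55681 probes of the array that are not controls. By coordinates and strand the probes form 4622 regions, of 3555 distinct pairs of coordinates on mouse build mm9. A region spans between 62 and 7128490 bases (median 10676) and carries between 1 and 10 probes, most often 3. The design has 8199 probes for transcripts of the forward strand and 8052 for transcripts of the reverse strand.

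Long intergenic non-coding RNAs are transcribed by RNA polymerase II from stretches between protein-coding genes, and many are capped, spliced and given a poly(A) tail without being translated. Most are made at low levels and in few cell types, while some are abundant and well studied: Xist coats and silences an X chromosome in female cells, H19 is an imprinted RNA of fetal tissues, and Neat1 and Malat1 stay in nuclear bodies. Transcription of such a stretch can be on either strand, so a tiling probe of a known strand shows whether, and on which strand, RNA is present.

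Stomachs were taken from 5 newborn C/EBPβ knockouts (KO 1 to KO 5), mice in which the gene for this leucine zipper transcription factor was inactivated, and from 4 newborn wild types (WT 1 to WT 4), with 1 mouse per array. The labels' protocols have the mice killed at birth, although the source field calls them old, and give no strain, sex, treatment or removed part of the gene. Total RNA was treated with DNase I and copied from oligo dT primers, so the arrays read RNA with a poly(A) stretch. A level below is log2 of the processed signal minus log2 of the 75th percentile of its array, and a difference is the knockout mean minus the wild-type mean of these levels.

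The probe for Cebpb was well above background on all 9 arrays and lay at a level of −2.18 ± 0.60 (SD, n = 5) in knockouts against 3.30 ± 0.30 (SD, n = 4) in wild types (limma adjusted p = 5.32e-05). A probe is called detected below where Feature Extraction flagged it as well above background on 4 or more of the 9 arrays. Of the stomach markers, 10 of 10 glandular, 5 of 5 forestomach and 3 of 3 smooth muscle genes were detected, as were 3 of 3 liver, 2 of 4 pancreas and 2 of 3 skeletal muscle genes. The mean level of the glandular genes was higher in every knockout (4.40 to 4.91) than in every wild type (3.63 to 4.14), and 1 of the 10, the gastric secreted protein gene Gkn2, passed the test (1.77 ± 0.25, limma SE, adjusted p = 0.0336). The other glandular genes differed unevenly, with Gkn1 at 1.83, Muc5ac at 1.12, Muc6 at 1.01 and Tff2 at 0.65. Atp4a differed by 0.44, Atp4b by 0.40, Pgc by 0.27 and 0.42, Tff1 by 0.01 and 0.08, and Barx1 by −0.04. The forestomach means overlapped (5.41 to 6.69 and 4.43 to 6.68), as did those of smooth muscle (6.71 to 7.36 and 7.06 to 7.90). WT 4 stood apart from the other wild types in several markers, with Krt4, a forestomach keratin, at 1.96 against 5.28 to 5.72, Acta1, skeletal muscle actin, at 1.95 against 3.69 to 4.59, and Top2a, a proliferation gene, at −0.84 against 1.54 to 1.65. The part of these markers in the lincRNA values was not tested. WT 4 had the lowest 75th percentile of the signal (221) and KO 3 the highest (472). The mean level of 3 Y-linked probes was −5.16, −6.47 and −7.06 on KO 2, KO 4 and KO 5 and between −0.39 and 0.04 on the 6 other arrays. The arrays came from 4 slides, with KO 4, KO 5, WT 3 and WT 4 on slide 1, KO 2, WT 1 and WT 2 on slide 4, and KO 3 and KO 1 alone on slides 2 and 3.

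The sequences of 3 regions on which the results turn are given first, as the array design lists them, 5′ to 3′. The first is a region on the reverse strand of chr15:59619971-59626514, the 1 region past the test threshold, whose 3 probes lie at chr15:59620648-59620707, chr15:59620934-59620993 and chr15:59621083-59621142.
chr15 region probe 1: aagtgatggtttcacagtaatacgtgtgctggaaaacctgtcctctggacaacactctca
chr15 region probe 2: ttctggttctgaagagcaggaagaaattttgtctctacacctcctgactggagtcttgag
chr15 region probe 3: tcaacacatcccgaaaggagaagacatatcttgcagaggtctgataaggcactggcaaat

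The second is the region that the array names XIST, on the reverse strand of chrX:100655711-100678572. It had the largest fitted difference of all lincRNA regions with at least 2 detected probes whose groups did not overlap. Its 5 probes follow each other within 303 bases, with a gap of 3 bases between probes 3 and 4 and none between the others, from chrX:100655839 to 100656141.
XIST probe 1: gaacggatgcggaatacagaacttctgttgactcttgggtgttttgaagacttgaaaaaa
XIST probe 2: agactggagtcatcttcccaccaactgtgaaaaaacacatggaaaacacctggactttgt
XIST probe 3: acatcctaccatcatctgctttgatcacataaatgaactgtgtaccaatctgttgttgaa
XIST probe 4: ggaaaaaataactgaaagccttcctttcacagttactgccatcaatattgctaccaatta
XIST probe 5: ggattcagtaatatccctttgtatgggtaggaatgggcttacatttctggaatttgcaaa

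The third is a region on the forward strand of chr17:26911397-26917047, beside Crebrf, whose 10 probes lie within 626 bases. Probes 5 to 7, which begin at 26913259, 26913290 and 26913319, show how far probes of a region can share sequence. Capitals mark the 29 bases that probe 6 shares with probe 5 and the 31 bases that it shares with probe 7, which together make up the whole of probe 6. In probe 10 (chr17:26913509-26913568) they mark AATAAA, the common polyadenylation signal.
probe 5: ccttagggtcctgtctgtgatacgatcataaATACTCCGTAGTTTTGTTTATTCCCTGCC
probe 6: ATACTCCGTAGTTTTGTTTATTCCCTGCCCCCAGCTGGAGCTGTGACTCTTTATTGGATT
probe 7: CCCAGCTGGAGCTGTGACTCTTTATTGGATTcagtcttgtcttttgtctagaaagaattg
probe 10: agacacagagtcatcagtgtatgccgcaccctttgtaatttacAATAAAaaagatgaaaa

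As listed, AATAAA was present in 637 of the 16251 lincRNA probes (3.92%), and its reverse complement TTTATT in 492 (3.03%). The match is a description of letters and does not show that RNA ends there. Such overlap was uncommon among detected probes, since 67 of 2731 pairs of neighbouring detected probes of a region (2.45%) shared bases.

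Most lincRNA probes gave no signal above background in the newborn stomach. Of the 16251 probes, 5329 (32.8%) were detected, against 24876 of 39430 other probes (63.1%). A total of 3336 lincRNA probes (20.5%) were above background on every array and 8651 (53.2%) on none. Per array the share of lincRNA probes above background ran from 26.7% on WT 3 to 35.7% on WT 2 and from 27.2% on KO 2 to 34.9% on KO 5, so the groups overlapped. At the edge of the filter, the 342 probes above background on exactly 4 arrays had a median level of −4.45, and the 400 on exactly 3 arrays, which were left out, a median of −4.72. The median GC content was 45.0% in the kept and in the other lincRNA probes.

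**Figure D1:**
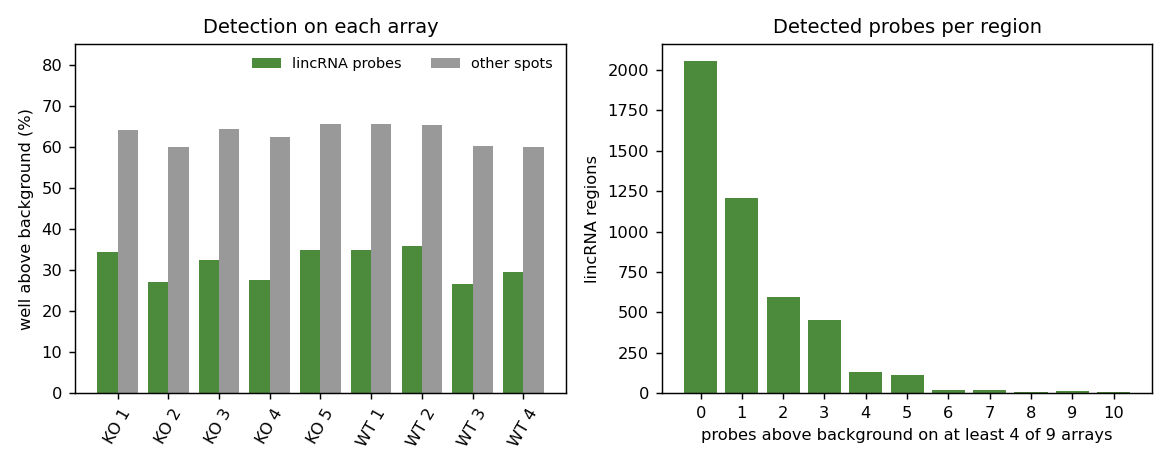
Left, the share of lincRNA probes and of other spots that were well above background on each array, in percent. Right, the number of lincRNA regions by how many of their probes were detected, meaning above background on 4 or more of 9 arrays. The lincRNA bars lie between 26.7% and 35.7% on the 9 arrays, and 2057 regions had no such probe.

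Of the 4622 regions, 2565 (55.5%) had at least 1 detected probe and 1355 had at least 2. Among the 3932 regions tiled with 2 or more probes, 532 had every probe detected and 1612 had none. By chromosome the share of regions with a detected probe ran from 47.3% of 279 on chromosome 13 to 61.6% of 185 on chromosome 11. Both strands were tiled for 1067 pairs of coordinates. RNA was detected on both strands for 447 of them, on 1 strand for 433 and on neither for 187. Where both strands were detected, the differences of the strands had 1 sign in 267 of 447 cases.

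Detected probes of a region varied together across mice. The median correlation between the probes of a region, after subtraction of each group's mean, was 0.59 over 1355 regions, against 0.41 over 4689 other genes with several detected probes. It was 0.55 in the tertile of these regions with the lowest levels and 0.68 in the tertile with the highest. These are descriptions over 9 arrays, and probes of a region share the region, the array and at times bases. Probes of different regions were not compared. The median lincRNA probe lay at 0.40 on WT 4 and −0.28 on WT 1 relative to the wild-type mean, and other probes at 0.01 on both. The part of such array shifts in these correlations was not tested. All detected probes of a region differed between the groups in 1 direction in 759 of 1355 regions (56.0%), and in 66 of the 176 regions with 5 or more detected probes (37.5%). The same share was not counted over other genes, and 592 of the 1355 regions had only 2 detected probes, so no excess is read from it. Of those 759 regions, 219 were higher in knockouts and the others lower. Of all detected lincRNA probes, 36.9% were above 0, and their median difference took the other sign without WT 4.

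Between knockout and wild type 1 of 5329 detected lincRNA probes and 1 of 2565 lincRNA regions passed the threshold of limma adjusted p below 0.05. Over all probes tested 42 of 30205 passed (0.139%), and over all regions and genes 47 of 21610 (0.217%), so neither lincRNA count is above the background share. At an unadjusted p below 0.05, 348 lincRNA probes passed (6.53%), 92 higher and 256 lower in knockouts, against 8.06% of all probes. Lower calls at this level were 4.80% of lincRNA probes and 3.53% of the other probes. The counts moved with the mice that entered. Without WT 4, 9 of 5329 lincRNA probes and 7 of 2565 lincRNA regions passed. Over the whole array 150 of 30205 probes and 182 of 21610 regions and genes passed there. Neither lincRNA count is thus above the background share. At an unadjusted p below 0.05 the split of the lincRNA probes was then 254 higher and 258 lower. Without WT 1, WT 2 or WT 3, no lincRNA probe or region passed in limma, while 13, 14 and 9 of all 30205 probes did. Of the 5329 lincRNA probes, 472, 280 and 259 had an unadjusted p below 0.05, with no share over all probes counted there.

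The region called lies on the reverse strand of chr15:59619971-59626514, has no name on the array and was lower in knockouts. Its level over the 2 detected probes was −3.83, −3.98, −3.52, −3.52 and −4.47 in KO 1 to KO 5 and −2.00, −1.70, −2.47 and −2.40 in WT 1 to WT 4. Every knockout was below every wild type. The difference was −1.72 ± 0.24 (limma SE; 3.30-fold lower, adjusted p = 0.0250). With the normexp background correction it was −0.84 (limma adjusted p = 0.0596). As 1 of the 2 detected probes was above background on 1 of 5 knockout arrays, the difference has no exact size.

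Its first probe was above background on all 9 arrays, with processed signals of 40.4, 32.5, 53.9, 58.4 and 26.6 in the knockouts and 161.7, 164.9, 81.2 and 85.8 in the wild types. It was the 1 lincRNA probe past the threshold (−1.83 ± 0.27, limma adjusted p = 0.0389). The second was above background on 4 of 4 wild-type arrays but on 1 of 5 knockout arrays (−1.61, adjusted p = 0.0926). The third, above background on 3 wild-type arrays and on no knockout array, was left out by the filter. Its signals were 2.8, 4.3, 13.1, 10.54 and 3.3 in the knockouts and 28.7, 43.6, 28.3 and 5.3 in the wild types, so here WT 4 lay within the range of the knockouts.

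The nearest probe of a gene with a symbol lay 132250 bases away in Trib1, a pseudokinase gene, with a difference of 0.01 (adjusted p = 0.999). The call was at the edge of the threshold. The direction was the same under every alternative run, and the call was lost without KO 1 (adjusted p = 0.0567), KO 2 (0.0754), KO 3 (0.0545), WT 1 (0.105), WT 2 (0.0908) or WT 3 (0.0616), and with slide as a block (0.211) or with a covariate for the Y-linked level (0.364).

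Among the 1355 regions with at least 2 detected probes, 22 (1.62%) had group means that did not overlap, 11 higher and 11 lower in knockouts. The same held for 177 of 6047 regions and genes with at least 2 detected probes (2.93%), so the lincRNA share is not above the background. The 10 of the 22 with the largest differences and with all detected probes on 1 side are described next. They were chosen for that separation, which is therefore no result, and beside the chr15 region none of these passed the threshold (limma adjusted p between 0.207 and 0.421).

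**Figure D2:**
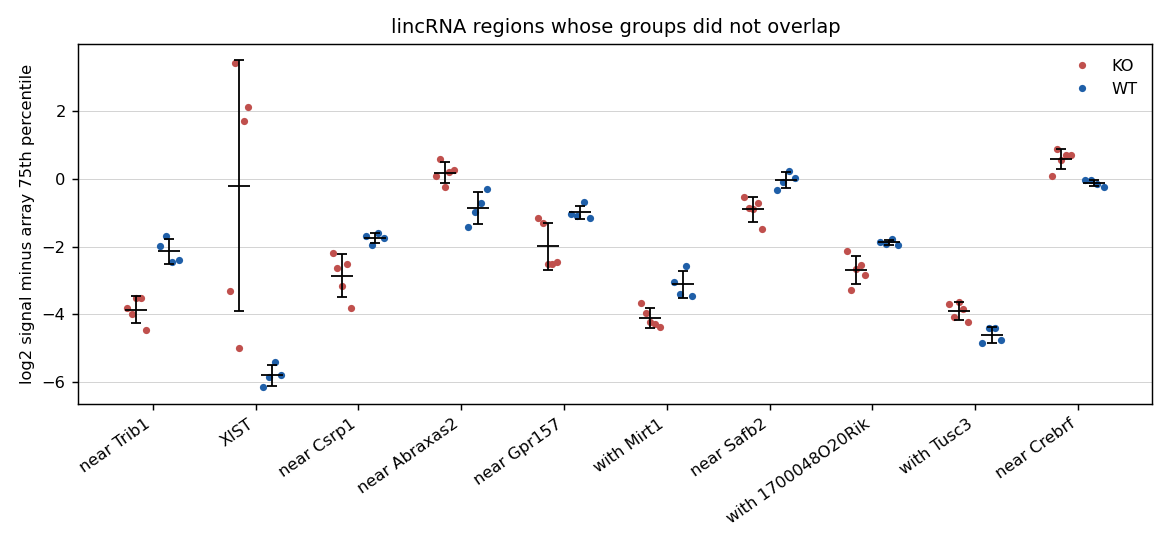
Level of the 10 lincRNA regions, as log2 signal minus the 75th percentile of the array, with 1 point per mouse (red knockout, blue wild type) and bars for the mean ± SD. Regions are labelled by the nearest gene ("with" where a probe of that gene lies inside the region). For XIST the 5 knockouts spread from −5.01 to 3.44, while in the region near Trib1 they stay between −4.47 and −3.52, below all wild types.

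The XIST region had the largest fitted difference, and its level split the knockout mice. It was 3.44, 1.73 and 2.13 in KO 2, KO 4 and KO 5, −3.31 and −5.01 in KO 1 and KO 3, and −6.16, −5.85, −5.42 and −5.80 in WT 1 to WT 4. The 3 high arrays are those on which the Y-linked level was low. The difference was 5.60 ± 1.59 (limma SE, adjusted p = 0.327) with an SD of 3.72 in knockouts. It was 1.91 with a covariate for the Y-linked level (adjusted p = 0.999), 2.87 with the normexp background correction (adjusted p = 0.484) and 8.30 with slide as a block (adjusted p = 0.00221), a fit that leaves KO 1 and KO 3 without weight. Every array with a low Y-linked level is a knockout, so genotype and that level cannot be told apart on these 3 arrays. KO 1 and KO 3 are knockouts without a low Y-linked level, and their XIST levels were the lowest of the knockouts. The fit with slide as a block thus sets only knockouts with a low Y-linked level against wild types without one.

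Most wild-type signals of the XIST probes were not well above background, so the fitted differences have no exact size. Probe 1 had signals of 68.3, 7219, 33.3, 3051 and 4310 in KO 1 to KO 5 and between 2.6 and 23.4 in the wild types. On the wild-type arrays probes 2, 4 and 5 were never well above background, and the knockout means were at least 25.8-fold, 11.3-fold and 14.7-fold higher than the bound there. The bound is the higher of the probe's own signal and the lowest signal above background on the array. On KO 3 the lowest signal of the 5 probes was 9.3, under the lowest signal above background there (16.3). The folds may therefore be no strict bounds. Probe 3 was the exception among wild types, with a signal of 147.1 on WT 2 while the 4 other probes were between 2.4 and 3.1 there. The array's separate Xist probes, at chrX:100656289-100656348 and chrX:100662174-100662233, were above background on KO 2, KO 4 and KO 5 alone and were left out by the filter. At the first, KO 1 and KO 3 had signals of 4.86 and 3.76 and the wild types 2.60 to 4.81. At the second they had 3.50 and 4.51, against 3.09 to 6.57. The separate probes thus do not show the higher level of KO 1 and KO 3 that the tiling probes gave. The region of TSIX, the antisense partner of Xist, had 0 of 5 probes detected.

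The region beside Crebrf on chromosome 17 was read by the most probes, and all 10 were higher in knockouts. Its level was 0.09, 0.87, 0.56, 0.72 and 0.70 in KO 1 to KO 5 and −0.04, −0.04, −0.15 and −0.25 in the wild types. KO 1 was the knockout closest to the wild types. The difference was 0.71 ± 0.17 (limma SE; 1.63-fold, adjusted p = 0.251), and the single probes differed by 0.51 to 0.81. Probe 6, whose bases are all held by probes 5 and 7, had the smallest difference (0.51), against 0.73 for probe 5 and 0.81 for probe 7. The groups did not overlap for 6 of the 10 probes. The probe of Crebrf, which encodes a regulator of the transcription factor CREB3, lies 2110 bases away and differed by 0.80 (adjusted p = 0.462).

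**Figure D3:**
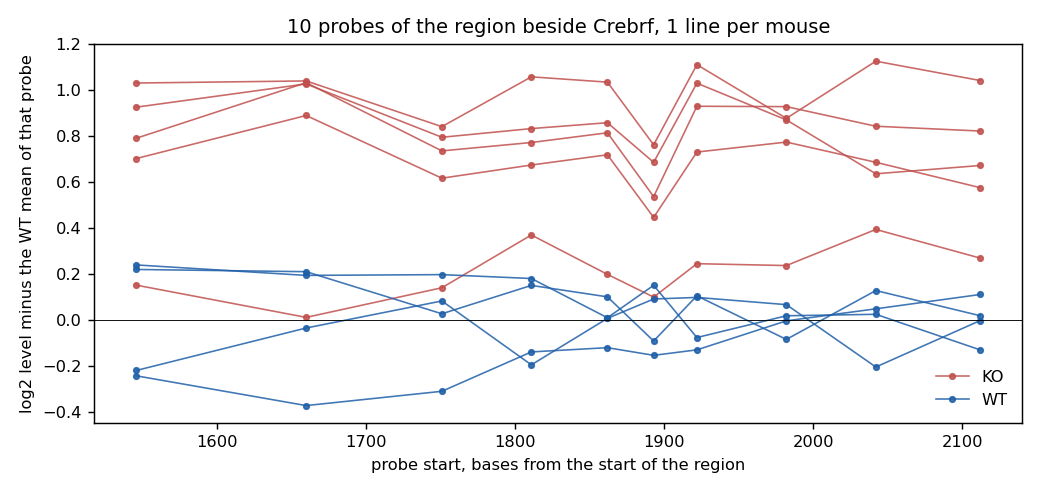
Level of each of the 10 probes of the region beside Crebrf minus the wild-type mean of the same probe, on the log2 scale, against the start of the probe in bases from the start of the region, with 1 line per mouse (red knockout, blue wild type). The probes' mean differences lie between 0.51 and 0.81, and the lowest knockout line is KO 1.

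The other separated regions differed by about 1 or less. On the reverse strand of chr7:140081171-140123058, near Abraxas2, a subunit gene of a deubiquitinating complex, the level was 0.18 ± 0.31 (SD, n = 5) in knockouts and −0.86 ± 0.46 (SD, n = 4) in wild types. The difference was 1.04 ± 0.24 (limma SE, adjusted p = 0.222), 1.22 without WT 4 (adjusted p = 0.0480) and 0.23 with the normexp background correction (adjusted p = 0.759). It rests on 1 of the 2 detected probes, which was above background on 4 of 5 knockout arrays and on no wild-type array. That probe passed the filter through the knockouts alone, so the region's difference and its p values are no support for a higher level. As not every knockout array was above background, no bound is given. The other detected probe, above background on all 9 arrays, differed by 0.26 (adjusted p = 0.929). The Abraxas2 probe itself, 5065 bases away, differed by 0.02. A probe of 2510016G02Rik placed within these coordinates, above background on all 9 arrays, differed by −0.34 ± 0.31 (limma SE, adjusted p = 0.855), in the other direction. On the reverse strand of chr8:40100925-40196350, which holds a probe of Tusc3, an oligosaccharyltransferase subunit gene, the 2 detected of 5 probes gave −3.90 ± 0.26 (SD, n = 5) and −4.62 ± 0.23 (SD, n = 4). The difference was 0.71 ± 0.18 (limma SE, adjusted p = 0.258), and with the normexp background correction it was −0.0073, so that its direction depended on the background correction.

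Lower in knockouts was a region on the reverse strand of chr1:137503023-137625604, 23143 bases from Csrp1, a LIM domain gene of smooth muscle. Its difference was −1.12 ± 0.30 (limma SE, adjusted p = 0.292) and that of Csrp1 −0.30. A region on the forward strand of chr4:149445201-149445902, 33817 bases from the receptor gene Gpr157, had all 3 probes detected and uneven knockouts, with KO 1 and KO 2 at −1.16 and −1.30, KO 3 to KO 5 between −2.53 and −2.46, and the wild types between −1.14 and −0.69. Its difference was −0.998 ± 0.33 (limma SE, adjusted p = 0.421).

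A region on the reverse strand of chr19:53517903-53540753 holds probes of the non-coding RNA gene Mirt1. Of its 10 probes 2 were detected, at −4.11 ± 0.29 (SD, n = 5) in knockouts and −3.12 ± 0.40 (SD, n = 4) in wild types. The Mirt1 probe with the highest level among those detected differed by −0.65. Another detected Mirt1 probe inside the region differed by −0.35 ± 0.45 (limma SE, adjusted p = 0.911), less than its standard error. On the reverse strand of chr17:56687541-56694631, near Safb2, a gene of a chromatin scaffold attachment factor, 4 of 5 probes were detected and the difference was −0.86 ± 0.21 (limma SE, adjusted p = 0.248). On the forward strand of chr9:121845920-121858120 all 5 probes were detected and lower, the difference was −0.81 ± 0.21 (limma SE, adjusted p = 0.289), and the wild types lay between −1.96 and −1.77. Its probes disagreed in size, since 1 differed by −0.03 and another by −1.32. The probe of 1700048O20Rik inside this region differed by −0.89 (adjusted p = 0.801).

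The array names 12 of the regions after known transcripts and lists 3 more, on chromosomes 3, 6 and 17, in the same style. Their regions are described by that name, which was decided after their values were seen. Of the 12, 8 had a detected probe: H19, NEAT1, NEAT2, TUG1, XIST, KCNQ1ot1, NRON and HOTAIR. BRN1-A, PINC, TSIX and lincP21 had none. Beside XIST, none of the 8 had groups that did not overlap, and none of the 8 passed the threshold.

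H19 had all 5 probes detected, at 4.57, 4.78, 5.87, 5.57 and 5.54 in KO 1 to KO 5 and 6.15, 6.53, 6.68 and 4.42 in WT 1 to WT 4. WT 4 was the lowest of all mice and the 3 other wild types the highest. The difference was −0.68 ± 0.46 (limma SE, adjusted p = 0.769), and without WT 4 it was −1.19 (adjusted p = 0.117). The brighter of the array's other H19 probes differed by −0.56 (adjusted p = 0.532).

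NEAT1, the architectural RNA of paraspeckles, had 5 of 5 probes detected. Its level was 3.42, 3.65, 1.12, 2.19 and 1.85 in the knockouts and 3.21, 2.78, 2.96 and 3.51 in the wild types. KO 1 and KO 2 lay among or above the wild types and KO 3 to KO 5 below them. The difference was −0.67 ± 0.48 (limma SE, adjusted p = 0.782), against −0.68 for the separate Neat1 probe. NEAT2, another name of Malat1, had 3 of 3 probes detected with a difference of 0.51 ± 0.24 (limma SE, adjusted p = 0.619), and the separate Malat1 probe differed by 0.71. A further lincRNA region inside these coordinates and on the same strand, chr19:5801802-5802597, differed by only 0.11 ± 0.39 (limma SE, adjusted p = 0.975). TUG1 had 5 of 5 probes detected, with means of 0.40 ± 0.45 (SD, n = 5) and 0.40 ± 0.34 (SD, n = 4).

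**Figure D4:**
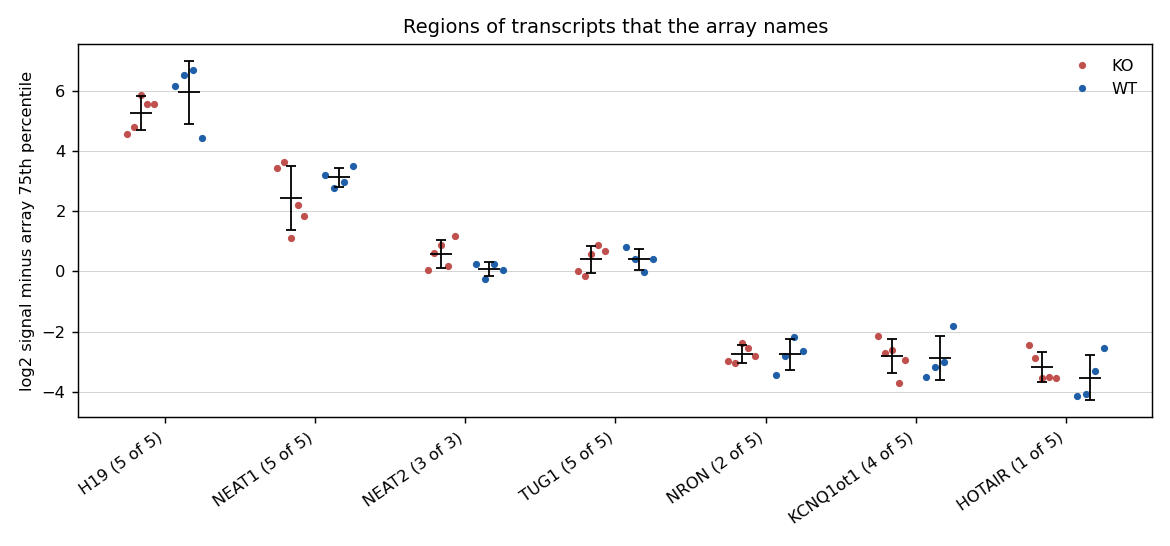
Level of the regions that the array names after known transcripts, without XIST, as log2 signal minus the 75th percentile of the array, with 1 point per mouse (red knockout, blue wild type) and bars for the mean ± SD. The label gives how many of the region's probes were detected, and in H19 WT 4 lies at 4.42, below the 3 other wild types. Levels of different regions come from different probes and are not compared, and the region named KCNQ1ot1 is tiled on the strand opposite to the Kcnq1ot1 probe.

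The region that the array names KCNQ1ot1, after an imprinted antisense RNA, is tiled on the forward strand, while the design places the Kcnq1ot1 probe inside it on the reverse strand. Its values are therefore not credited to that RNA. It had 4 of 5 probes detected, at −2.82 ± 0.57 (SD, n = 5) and −2.88 ± 0.74 (SD, n = 4). NRON, a repressor of the transcription factor NFAT, had 2 of 5, at −2.75 ± 0.29 (SD, n = 5) and −2.76 ± 0.52 (SD, n = 4). HOTAIR, transcribed from the HoxC cluster, had 1 of 5, at −3.18 ± 0.50 (SD, n = 5) and −3.52 ± 0.75 (SD, n = 4). For these the groups differed by less than the standard error of the difference. The region chr17:12941161-12944859, forward strand, holds a probe of Airn, an imprinted antisense RNA, and had 5 of 5 probes detected at −0.56 ± 0.41 (SD, n = 5) and −0.41 ± 0.64 (SD, n = 4). The region at chr3:34856791-34869544 had 1 of 3 detected (−0.80 ± 0.34, limma SE, adjusted p = 0.562), and that at chr6:52032838-52033444 had 0 of 5.

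Inside or beside several of the 6 regions with the highest levels, among those with at least 2 detected probes, lie probes of abundant RNAs. Signals of different probes depend on the probe, so no order is read from them. Neighbouring regions on the forward strand at chr17:39982023-39983277 and chr17:39983902-39985688 had differences of −0.65 ± 0.20 and −0.62 ± 0.21 (limma SE, adjusted p = 0.381 and 0.445), and a probe for Rn18s, the 18S ribosomal RNA, lies inside the second. A region on the reverse strand of chr17:17481706-17482457 holds a probe that the array assigns to Oaz1, ornithine decarboxylase antizyme, whose other probe is placed on chromosome 10, so which copy gave the signal is uncertain. It had 6.84 ± 0.10 (SD, n = 5) in knockouts and 6.85 ± 0.13 (SD, n = 4) in wild types. A region on the reverse strand of chr19:5801802-5802597 lies inside the coordinates of the NEAT2 region and had 6.47 ± 0.61 (SD, n = 5) and 6.36 ± 0.73 (SD, n = 4). H19, described above, is another of the 6.

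The last of them lies on the forward strand of chr9:78107225-78118850, 16755 bases from Gsta1, a glutathione transferase gene with close paralogs. The level was 6.06, 6.32, 7.49, 6.79 and 7.66 in KO 1 to KO 5 and 5.27, 4.91, 4.88 and 7.15 in the wild types, with WT 4 inside the range of the knockouts and the 3 others below it. The difference was 1.31 ± 0.51 (limma SE, adjusted p = 0.518), 1.85 without WT 4 (adjusted p = 0.0630), and 1.33 for the Gsta1 probe. Its 2 detected probes adjoin each other, and the 3 others were above background on 1 knockout array each. Whether the signal is from this region or from a paralog of Gsta1 is uncertain.

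Of the 7 regions with 10 of 10 probes detected, that beside Crebrf was described above. The region on the forward strand of chr5:74487385-74497428, which holds a probe of the non-coding RNA gene Dancr, had all 10 probes lower in knockouts (−0.44 ± 0.24, limma SE, adjusted p = 0.682). Its groups overlapped. Another 4, near Ptp4a2, Arl6 and 9530062K07Rik and within Hmbox1, differed by less than their standard error.

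Among regions with at least 2 detected probes and not named so far, 3 had the widest spread among mice. On the forward strand of chr3:96074625-96086375, 464 bases from the immunoglobulin receptor gene Fcgr1, the 5 probes gave −1.51, −1.33, −4.08, −2.94 and −4.18 in KO 1 to KO 5 and −4.87, −2.51, −4.48 and −5.27 in the wild types. KO 1, KO 2 and WT 2 were the highest and the groups overlapped (1.48 ± 0.74, limma SE, adjusted p = 0.638). On the forward strand of chr9:55786058-55797810, KO 3 lay at −6.49 and the other mice between −4.32 and −2.26 (−1.01 ± 0.64, adjusted p = 0.744). On the forward strand of chr2:128249388-128250301, KO 5 lay at −5.58, KO 4 at −1.14 and the other mice between −4.14 and −2.00.

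Of the 16 regions within 2 Mb of the Cebpb probe on chromosome 2, 12 had a detected probe. Their differences ran from −0.82 to 0.11, 7 of them below 0 and 5 above, and the lowest limma adjusted p was 0.568. The nearest, on the forward strand of chr2:167602966-167608069 and 87079 bases from the Cebpb probe, had 0 of 2 probes detected. The lowest difference was that of the reverse strand of chr2:167388900-167402475, 20768 bases from the probe of Snai1, with −4.11 ± 0.77 (SD, n = 5) in knockouts and −3.29 ± 0.59 (SD, n = 4) in wild types. For 10 of the 12 the difference was within its standard error.

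The design places gene probes inside some of the regions, which gives a second reading of the same stretch. In 536 pairs of a detected region and a detected gene probe on its strand, over 399 regions, the differences had 1 sign in 353 (65.9%). For 362 pairs on the opposite strand the count was 199 (55.0%). Pairs of 1 region share its values, and all pairs share the arrays. The median distance from a region to the nearest probe of a gene with a symbol was 14058 bases.

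Over all 5329 detected lincRNA probes the median difference was −0.09, against 0.01 over the 24876 other probes, and 36.9% of lincRNA probes were above 0 against 51.5% of the others. Within the tertile of probes with the lowest levels the medians were −0.12 for 3375 lincRNA probes and −0.06 for 6693 others, and within the highest tertile −0.02 for 499 and 0.04 for 9570. The direction of the lincRNA median turned on 1 mouse. Without WT 4 it was 0.03, with a covariate for the Y-linked level 0.01, without WT 1 −0.20 and with slide as a block −0.20. Relative to the wild-type mean, the median lincRNA probe lay at 0.40 on WT 4, the array with the lowest 75th percentile, at 0.14 on KO 1, between −0.28 and 0.02 on WT 1, WT 2 and WT 3, and between −0.28 and −0.06 on the 4 other knockouts. The part of WT 4, of its dimmer signal and of its marker levels in this shift was not tested beyond the value without it.

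**Figure D5:**
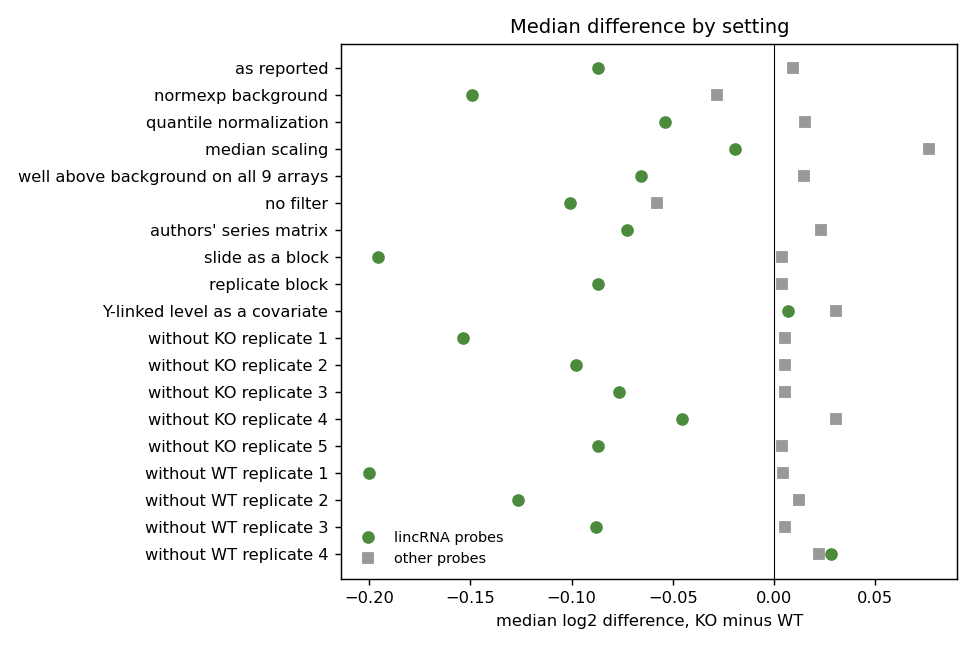
Median log2 difference, knockout minus wild type, of the detected lincRNA probes (green circles) and of the other detected probes (grey squares) as reported and under each alternative setting. The lincRNA median is −0.09 as reported and lies above 0 without WT 4 (0.03) and with a covariate for the Y-linked level (0.01).

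Without WT 4, 182 of 21610 regions and genes passed the threshold. Among them were 7 of the 2565 lincRNA regions, 5 of these higher in knockouts. Beside the chr15 region (−1.81, limma adjusted p = 0.0240) and that near Abraxas2, they were chosen after their values were seen. On the forward strand of chr14:43418592-43428090, tiled with 1 probe, the knockouts lay between −3.24 and −2.10, WT 1 to WT 3 at −5.89, −6.18 and −5.70, and WT 4 at −3.32. That probe was above background on all 5 knockout arrays and on WT 4 but on none of WT 1 to WT 3, so its difference has a bound and no exact size. The knockouts were at least 3.74-fold higher than the bound on those 3 arrays (adjusted p = 0.00149 without WT 4 and 0.175 with it). The reverse strand of chr4:155585650-155608700, with a probe of Perm1, a regulator of muscle metabolism, differed by −1.26 without WT 4 (adjusted p = 0.0357) and by −0.95 with it. The reverse strand of the region near Gsta1 differed by 1.12 (adjusted p = 0.0473) and by 0.57 with WT 4. The remaining 2, on the forward strand of chr13:98281158-98285757 and the reverse strand of chr9:88575075-88611650, differed by 1.78 and 1.04 (adjusted p = 0.0480 and 0.0315). In each of these, 1 of the 2 detected probes was above background on none of WT 1 to WT 3. On chromosome 13 that probe was above background on all 5 knockout arrays, with knockouts at least 2.56-fold higher than the bound there. On chromosome 9 it was above background on 3 of 5 knockout arrays, so no bound is given. The other detected probe of the chromosome 9 region, above background on every array, differed by 0.25 without WT 4.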

How the data were processed

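The scanner files hold spot intensity on a linear scale, made by the authors with Feature Extraction 10.5.1.1 per the file headers, while the submitters' processing notes name version 9.1. The processed signal is background-subtracted and not normalized between arrays. The deposited flags of another kind (well above background, outlier) are Feature Extraction's. The authors' deposited series matrix holds log2 values, which followed the processed signal within 3.61e-06 over 24294 probes, apart from a centring that stays unknown. Controls and outlier spots were left out. Levels are log2 processed signal minus the 75th percentile of the array, and probes flagged well above background on 4 or more of 9 arrays were kept and tested. A region's level is the mean of its kept probes, and other probes were averaged by gene. Groups were compared by limma 3.58.1 in R 4.3.3 (lmFit and eBayes, two-sided, no covariate, Benjamini-Hochberg over all probes, or all regions and genes, threshold 0.05), a procedure also tested on simulated data. The number of arrays limits the precision. The labels number the mice but do not say whether they shared a litter. Coordinates and gene places come from the array design (mm9), and names come from the RefSeq table of assembly GRCm38.p6, which matched 31073 of 38937 placed probes. Of the lincRNA probes, 118 have no place of their own.

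Regions named are every region past the threshold, the 10 with the largest difference among those with at least 2 kept probes, 1 sign and no overlap, in the same set the 6 with the highest level, those with the most kept probes (7 tied at 10, 1 of them not reported here) and the 3 with the widest spread not named already, and all within 2 Mb of Cebpb. Markers of stomach and neighbouring tissues were a fixed list. The regions, lists and rules were chosen with earlier results of these data known. Alternatives were normexp background correction (offset 50), quantile or median scaling, other filters, the series matrix, slide, mouse number, the Y-linked level and each array left out.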

Additional observations from a re-analysis of the deposited data

Results flagged for a closer look

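Within 45 named regions with a detected probe, each array of a group was set against the others of its group (90 groups), and 7 stood apart by a gap that takes most of the group's range (Dixon's 95% limit). Chance alone flags about 1 in 20 groups. Of the 7, 3 were WT 4: at 7.15 on the forward strand of chr9:78107225-78118850 near Gsta1, where the other wild types lay between 4.88 and 5.27, at −0.79 on the forward strand of chr2:168804720-168854970, where they lay between −3.75 and −3.44, and at −4.14 at chr3:34856791-34869544, where they lay between −3.47 and −3.36. WT 1 lay at 6.41 in the ribosomal region chr17:39983902-39985688, against 6.84 to 6.87, and at 6.18 on the reverse strand of chr2:167085700-167117795, against 6.34 in each of the others. KO 2 lay at −1.99 on the forward strand of chr2:167388900-167402475, against −1.32 to −1.17. KO 1 lay at −3.71 on the reverse strand of chr2:165780133-165800663, against −4.28 to −4.14.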

How the results depend on the processing

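The knockout difference of Cebpb kept its direction and its call under all 18 alternatives. The 1 lincRNA probe past the threshold became 0 with median scaling, no filter, the replicate block or the Y-linked level, and 3, all of XIST, with slide as a block. The 1 region became 0 with normexp, quantile normalization, median scaling, no filter, the replicate block or the Y-linked level, and with slide as a block the 1 region was XIST in place of that on chromosome 15. At an unadjusted limma p below 0.05, the settings without a called probe had between 163 of 5329 lincRNA probes (Y-linked level) and 682 of 16251 (no filter). With all arrays in, those without a called region had between 65 (Y-linked level) and 155 (quantile normalization) of 2565 regions, and 135 of 4622 with no filter. The share over all probes was not counted in these settings, so no excess among lincRNA probes is read from them. Leaving out 1 array gave 0 to 9 lincRNA probes and 0 to 7 lincRNA regions. Over the whole array it gave 9 to 150 of 30205 probes and 15 to 182 of 21610 regions and genes. The 22 of 1355 regions without overlap became 14 of 792 when every array had to be above background. With an array left out the count was 26 to 82 of 1355. It could not fall there, since groups that do not overlap stay apart with fewer arrays. The share over all regions and genes was not counted in these settings, so no excess among lincRNA regions is read from them. The mouse numbers did not pair the samples, since the correlations of same-numbered mice ran from −0.47 to 0.14, and the replicate block left 0 calls in both counts. The 5329 detected probes became 3336 when all 9 arrays had to pass. The share of regions with 1 sign ran from 41.7% to 71.7%. Of the named regions, that on chr8:40100925-40196350 turned to −0.0073 with normexp. For 22 of 45 named regions the difference was within its standard error, and 21 of these took the other sign under some alternative. Signal over background limits precision, since 3375 of 5329 lincRNA probes lie in the tertile of probes with the lowest levels.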
